A study of Mus musculus with 9 samples.

Results

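Lymphoid cells enter, stay in and leave the bone marrow through a small set of surface molecules. The expression of 9 such genes was examined in BCR/ABL-transformed mouse bone marrow cells: the chemokine receptors Cxcr4, Cxcr5, Ccr7 and Ccr9, the sphingosine 1-phosphate receptor S1pr1, the selectin ligand Selplg, the integrin chains Itga4 and Itgb1 and the hyaluronan receptor Cd44. They were listed by name as genes of marrow retention and migration, with earlier results of these data known, and are 9 of the 50686 genes counted in each library. The 9 genes were all among the 13852 genes that passed the filter on low counts.

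The study asked what STAT5A and STAT5B each contribute to BCR/ABL-driven leukemia. RNA-seq libraries came from immortalized bone marrow lines on a C57BL/6N background, all carrying the BCR/ABLp185 oncogene, delivered by a retrovirus. The wt line kept both Stat5 genes, the second line was Stat5a-/- and the third was Stat5b-/-. There was 1 line per genotype, sequenced as 3 technical replicates, so the tests compare 3 lines and their p-values measure the spread between technical replicates only. What a gene deletion does and what separates 1 line from another by chance cannot be told apart in this design.

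Homing works in steps. Selectins on the vessel wall catch glycosylated ligands such as PSGL-1 (Selplg) and slow the cell, chemokines then act through G-protein-coupled receptors that switch integrins to a state of high affinity, and the integrins hold the cell to VCAM-1 or fibronectin. CXCR4 keeps B-cell precursors in the marrow through its ligand CXCL12, whereas S1PR1 draws lymphocytes toward the sphingosine 1-phosphate of the blood. CXCR5, CCR7 and CCR9 guide lymphocytes to B-cell follicles, to the T zones of lymph nodes and to thymus and gut. CD44 and the VLA-4 integrin (Itga4 with Itgb1) anchor leukemic cells in their niche.

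The libraries held between 11948136 and 19016396 counted reads. Values are normalized CPM, read counts scaled to the effective size of each library, unless a level per length is named. Titles and genotype labels gave the groups, although the description of each knockout sample reads as a wt line, so the deleted genes were checked first. In wt, Stat5a-/- and Stat5b-/- respectively, Stat5a measured 43.2 ± 6.35, 12.4 ± 1.02 and 83.7 ± 10.2 (mean ± SD, n = 3), and Stat5b 105.5 ± 1.96, 142 ± 15.9 and 63.4 ± 7.72. Each deleted gene was lowest in the line labelled for it (log2 fold change -1.80 for Stat5a and -0.73 for Stat5b against wt), and neither was at 0 in counts over the whole gene. The B-lineage markers Cd79a and Pax5 were high in every library, and the summed level of 8 B-lineage markers ranged from 4620 to 4925 in wt, 6449 to 7153 in Stat5a-/- and 5741 to 6585 in Stat5b-/-. All 16 T-cell markers also had reads, with sums of 809, 1086 and 1006 in wt, 1576, 1667 and 1447 in Stat5a-/- and 2586, 1834 and 2446 in Stat5b-/-. The defining T-cell genes Cd3d, Cd3e and Cd3g were among them. In wt, Stat5a-/- and Stat5b-/-, Cd3d averaged 19.9, 22.0 and 43.8, Cd3e 153, 218 and 336, and Cd3g 40.7, 53.5 and 93.9. The T-cell marker Cd2 peaked in Stat5a-/- (55.1, 276 and 96.3), and Cd28 was lower there than in wt (30.8, 24.4 and 45.2). Markers of other cells were far lower and also differed between the lines. NK-cell markers summed to 29.1 to 44.0 in wt, 32.2 to 43.8 in Stat5a-/- and 80.0, 43.1 and 73.4 in Stat5b-/-. Of their defining genes, Klrb1c went the other way (means 10.3, 4.43 and 1.63) and Ncr1 had only 1 to 5 reads. Klrk1 (16.4, 21.7 and 40.4), Eomes and Prf1 were highest in Stat5b-/-. Myeloid markers summed to 4.22 to 6.72, 4.88 to 6.57 and 9.70 to 11.1, and erythroid and megakaryocyte markers (with Pf4 at 0) to 11.6 to 14.9, 11.8 to 14.1 and 4.19 to 5.14. Stromal and endothelial markers summed to at most 1.71.

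In the Stat5b-/- line, all 4 chemokine receptors, S1pr1 and Selplg were higher than in wt, and Itgb1 and Cd44 were lower. By the quasi-likelihood test of edgeR, with p-values adjusted after Benjamini-Hochberg over all tested genes, 6 members rose, 2 fell and Itga4 did not pass (adjusted p = 0.454). Of all tested genes, 46.2% passed in this comparison, 24.2% upward and 22.0% downward. The median log2 fold change of the 9 genes was 0.79, beside 0.023 over all tested genes. Past 2-fold were Cxcr5, Ccr7 and Ccr9, a rule met by 19.1% of all tested genes (10.6% upward and 8.44% downward). In 8 of the 9 genes the Stat5b-/- and wt libraries did not overlap, as in 54.2% of all tested genes.

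In the Stat5a-/- line, only Cxcr4, Cxcr5 and Ccr7 passed among the 9 genes, each upward, while 36.0% of all tested genes passed (19.8% upward and 16.3% downward). Cxcr5 and Ccr7 were past 2-fold, beside 14.2% of all tested genes (7.75% upward and 6.49% downward). The members' median log2 fold change was 0.24 against 0.0099 over all tested genes, and 4 of the 9 genes had libraries that did not overlap with wt, beside 49.2% of all tested genes. Both comparisons rest on the same wt libraries. Set directly against Stat5a-/-, the Stat5b-/- line had 4 members higher (Cxcr4, Ccr9, S1pr1, Selplg) and 2 lower (Cxcr5, Itgb1), where 33.9% of all tested genes passed (16.4% higher and 17.5% lower), and the medians were 0.20 and 0.020. Only Cxcr5 was past 2-fold there, a rule that 11.4% of all tested genes met (4.81% higher and 6.59% lower), and 8 of the 9 genes had libraries that did not overlap, beside 44.8%. In libraries of whole cultures, fewer cells of a type and less RNA per cell cannot be told apart.

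**Figure D1:**
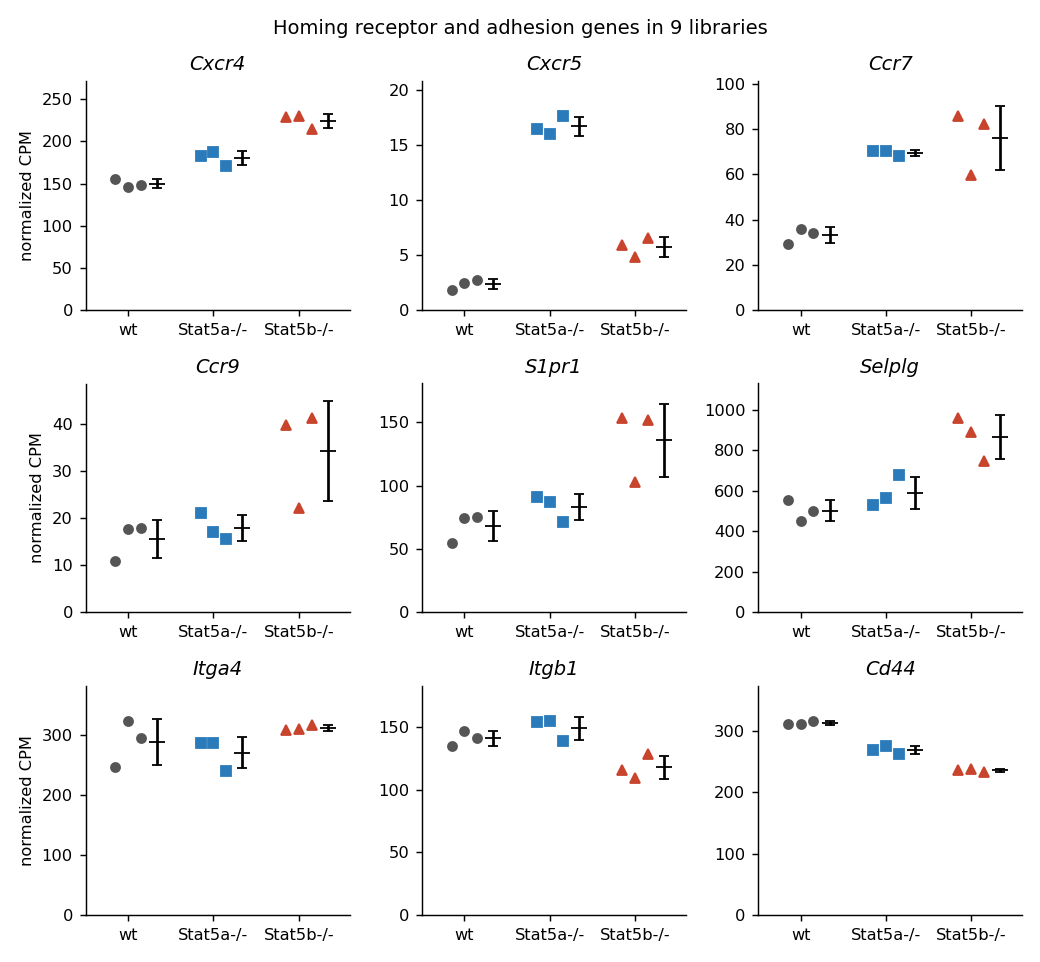
Normalized CPM of the 9 genes in each of 9 libraries, with 1 panel per gene. Coloured points are the 3 technical replicates of a line and the black bars beside them are mean ± SD (n = 3). Cxcr4 steps up from wt to Stat5a-/- to Stat5b-/-, Cxcr5 peaks in Stat5a-/- (mean 16.7), and Cd44 steps down from 313 to 269 to 237.

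In the plot of values by library, Cxcr5 stood highest in Stat5a-/-, Ccr7 was high in both knockout lines, and Ccr9, S1pr1 and Selplg were higher in Stat5b-/- than in both other lines. Cxcr4 stepped up and Cd44 stepped down over the 3 lines without overlap, Itgb1 was lowest in Stat5b-/-, and the Itga4 range in wt overlapped with those of both knockout lines.

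**Figure D2:**
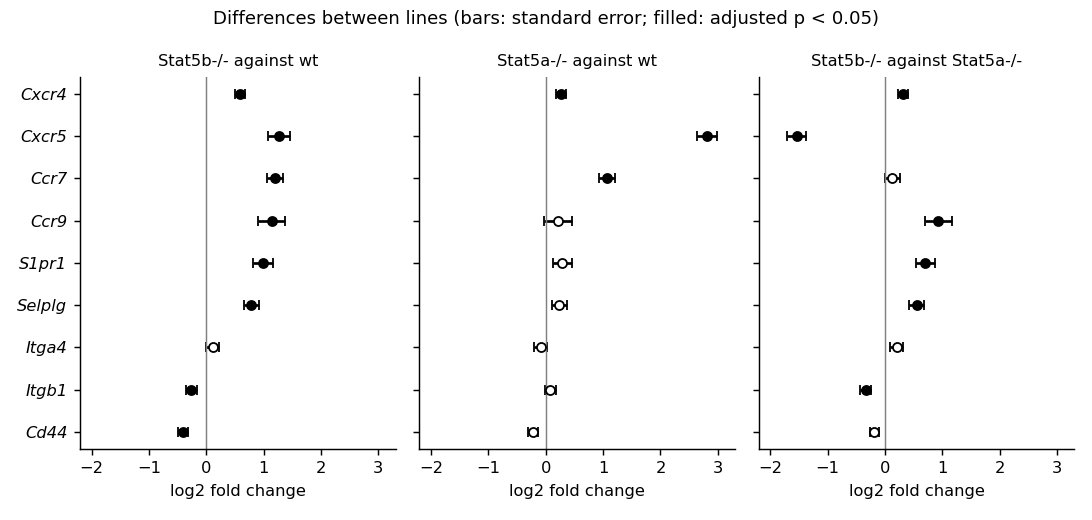
Log2 fold change of each gene in the 3 comparisons, with bars of 1 standard error. Filled points passed an adjusted p under 0.05. The Stat5b-/- panel against wt holds 6 filled points right of 0 and 2 left of it, and the Stat5a-/- panel has 3 right of 0, of which Cxcr5 at 2.81 lies farthest out.

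Cxcr4 (ENSMUSG00000045382.6, chromosome 1 from 128588199 to 128592293 of GRCm38, minus strand) encodes the receptor that holds B-cell precursors in the marrow. It measured 155.5, 146 and 148 in the wt libraries, 182.5, 187 and 171 in Stat5a-/- and 229, 230.2 and 215 in Stat5b-/-. The 3 lines did not overlap. Against wt, Cxcr4 rose by a log2 fold change of 0.58 (SE 0.088, adjusted p = 1.29e-04) in Stat5b-/- and by 0.27 (SE 0.088, adjusted p = 0.0306) in Stat5a-/-. The Stat5b-/- line also exceeded Stat5a-/- directly (0.32, adjusted p = 0.0138). The smaller rise in Stat5a-/- no longer passed without wt replicate 2 or 3 or without any 1 of the Stat5a-/- libraries, with adjusted p between 0.0529 and 0.127, nor without the filter on low counts (adjusted p = 0.165).

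RefSeq promoter windows were at hand for 5 of the 9 genes. The windows of Cxcr4, Cd44 and Itgb1 are shown because these genes passed the test in Stat5b-/- against wt and their windows hold no counted exon base. The first of them covers the 250 bases before the Cxcr4 start, chr1:128592300-128592549 of GRCm38.p6, minus strand, read 5′ to 3′. Capitals mark TATAAA, the TATA box, and its overlapping match on the other strand, TTTATA, from 32 bases before the start.
Cxcr4: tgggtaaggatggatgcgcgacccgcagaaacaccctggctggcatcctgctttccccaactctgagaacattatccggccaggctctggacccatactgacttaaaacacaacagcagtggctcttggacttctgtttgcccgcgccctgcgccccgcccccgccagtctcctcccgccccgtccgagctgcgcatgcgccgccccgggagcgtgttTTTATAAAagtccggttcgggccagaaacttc
TATAAA was looked for on both strands after the values were known, and 13.6% of 32851 RefSeq promoter windows hold it. The STAT palindrome TTCNNNGAA, present in 8.30% of those windows, and the interferon-response core (GAAA, any 2 bases, GAAA), present in 3.44%, were found in none of the 5 windows, searched on both strands from 250 bases before to 50 bases after the start.

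Cxcr5 (ENSMUSG00000047880.15, chromosome 9 from 44511787 to 44561877, minus strand), the receptor for the follicle chemokine CXCL13, changed most. Its levels were 1.84, 2.47 and 2.77 in wt, from 29, 49 and 48 reads. They were 16.5, 16.03 and 17.7 in Stat5a-/- and 5.90, 4.78 and 6.55 in Stat5b-/-. No library of 1 line reached the range of another. Cxcr5 rose 7.02-fold in Stat5a-/- (log2 fold change 2.81, SE 0.18, adjusted p = 5.53e-08) and 2.41-fold in Stat5b-/- (1.27, SE 0.19, adjusted p = 1.30e-04). Set against Stat5a-/-, the Stat5b-/- line had less (-1.54, SE 0.17, adjusted p = 1.25e-05).

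Cxcr5 shares 110 exon bases with Bcl9l, a cofactor of Wnt signalling on the opposite strand with 1396 to 3149 reads per library, and no strand option was set in the deposited counting command. Reads that overlap exons of both genes count for neither under the default setting. Against wt the log2 fold changes of Bcl9l were 0.84 in Stat5a-/- and 1.12 in Stat5b-/-, and the value between the knockout lines was 0.28 (adjusted p = 0.154). Between the knockout lines the log2 fold changes of Cxcr5 and Bcl9l had opposite signs, and against wt in Stat5b-/- they were of like size. Whether reads of Bcl9l enter the Cxcr5 counts was not tested.

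Ccr7 (ENSMUSG00000037944.8, chromosome 11 from 99144196 to 99155077, minus strand) encodes the receptor for the lymph node chemokines CCL19 and CCL21. It read 29.3, 35.9 and 34.1 in wt, 70.4, 70.4 and 68.2 in Stat5a-/- and 85.9, 59.8 and 82.3 in Stat5b-/-. Every knockout library lay above every wt library, and the ranges of the knockout lines overlapped. Ccr7 rose 2.10-fold in Stat5a-/- (log2 fold change 1.07, SE 0.14, adjusted p = 3.69e-05) and 2.29-fold in Stat5b-/- (1.20, SE 0.14, adjusted p = 1.16e-05). The difference between the knockout lines was 0.13 (SE 0.13, adjusted p = 0.502) and lay between 0.022 and 0.27 without single Stat5b-/- libraries.

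Ccr7 lies on the chromosome of the deleted genes, 1.70 Mb from Stat5a and 1.63 Mb from Stat5b. The 83 tested genes within 2 Mb of Stat5a or Stat5b had median log2 fold changes of -0.090 in Stat5b-/- and -0.066 in Stat5a-/- against wt. Of these 83, 20 rose and 26 fell in Stat5b-/- (55.4%, beside 46.2% of all tested genes), and 13 rose and 18 fell in Stat5a-/- (37.3%, beside 36.0%). Whether DNA linked to a deletion bears on Ccr7 was not tested.

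Ccr9 (ENSMUSG00000029530.16, chromosome 9 from 123678439 to 123784330, plus strand), the receptor for the thymic and gut chemokine CCL25, had 10.9, 17.8 and 17.9 in wt. In Stat5a-/- it had 21.1, 17.2 and 15.7, and in Stat5b-/- 39.8, 22.1 and 41.2. Stat5a-/- overlapped with wt, whereas the lowest Stat5b-/- library lay just above the highest library of the other lines. Ccr9 rose 2.20-fold in Stat5b-/- against wt (log2 fold change 1.14, SE 0.24, adjusted p = 0.00156) and differed by 0.93 from Stat5a-/- (SE 0.24, adjusted p = 0.00933). The Stat5a-/- difference from wt was 0.21 (adjusted p = 0.540), or 0.013 without wt replicate 1 and 0.056 without Stat5a-/- replicate 1. Neighbours that share exon bases with Ccr9 had at most 4 reads in any library. Reads over shared exon bases count for neither gene, so these counts do not show how many Ccr9 reads were left out.

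S1pr1 (ENSMUSG00000045092.8, chromosome 3 from 115710433 to 115715072, minus strand) encodes the receptor for egress into blood. Levels were 54.8, 74.2 and 75.5 in wt, 90.9, 87.3 and 71.6 in Stat5a-/- and 153, 102 and 151 in Stat5b-/-. As with Ccr9, replicate 2 of Stat5b-/- stood well below the other two and still above all libraries of the other lines. S1pr1 rose 1.99-fold in Stat5b-/- against wt (log2 fold change 0.99, SE 0.17, adjusted p = 3.46e-04) and was higher than in Stat5a-/- by 0.70 (SE 0.17, adjusted p = 0.00626). In Stat5a-/- the difference from wt was 0.29 (SE 0.17, adjusted p = 0.207), or 0.15 without wt replicate 1.

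The summed T-cell markers moved with these receptors, and the NK-cell sum also had its lowest Stat5b-/- value in replicate 2. The part of NK-cell or myeloid markers was not tested. For Ccr7, Ccr9, S1pr1 and Itgb1, the library with the lowest T-cell sum was the lowest of its line in all 3 lines, a pattern shared by 11.1% of tested genes. Across the 9 libraries, which share lines and totals, Pearson's r with the log2 T-cell sum was 0.94 for S1pr1, 0.94 for Ccr7, 0.91 for Cxcr4, 0.89 for Ccr9, 0.77 for Selplg, 0.49 for Cxcr5, 0.46 for Itga4, -0.47 for Itgb1 and -0.94 for Cd44. Of the 16 T-cell markers, 15 rose and 0 fell in Stat5b-/- against wt (46.2% of all tested genes passed), and 8 rose and 0 fell in Stat5a-/- (36.0%).

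**Figure D3:**
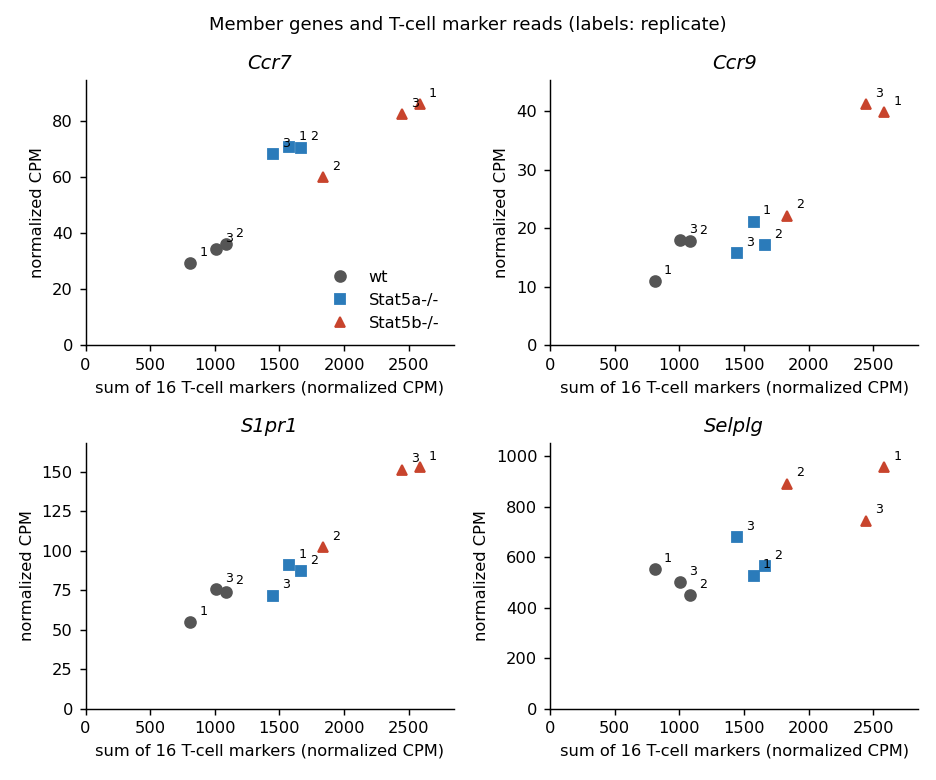
Normalized CPM of Ccr7, Ccr9, S1pr1 and Selplg against the summed normalized CPM of 16 T-cell markers, with 1 point per library, marked by line and numbered by replicate. In Stat5b-/-, replicate 2 has the lowest T-cell sum (1834) and the lowest Ccr7, Ccr9 and S1pr1, whereas the lowest Selplg is in replicate 3.

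A fit with the log2 T-cell sum as a covariate, chosen after the data were seen, tested how far the calls stand beside it. In Stat5b-/- against wt 0 of the 9 genes then passed, 4 of them had an unadjusted p under 0.05, and 8.93% of all tested genes passed. The standard errors grew, to 0.26 from 0.088 for Cxcr4. Cxcr4 (0.68), Selplg (1.26), Itgb1 (-0.66) and Cd44 (-0.42) had values at least as large as without the covariate. Those of Cxcr5 (0.43) and Ccr7 (0.11) were smaller, and Ccr9 (-1.05), S1pr1 (-0.52) and Itga4 (-0.43) changed sign. No other tool was run with the covariate. Against wt in Stat5a-/-, Cxcr5 kept its rise (2.35, adjusted p = 3.58e-04), Ccr9 and S1pr1 were lower (-0.99 and -0.55, adjusted p = 0.0184 and 0.0489), and 21.1% of all tested genes passed. Ccr7 (0.47, adjusted p = 0.0736) and Cxcr4 (0.32, adjusted p = 0.186) lost their calls there. Between the knockout lines, Cxcr5 and Itgb1 stayed lower and Selplg higher in Stat5b-/- (-1.92, -0.51 and 0.76, adjusted p = 5.29e-04, 0.0313 and 0.0256), with 14.5% of all tested genes passing. Cxcr4 (0.36, adjusted p = 0.102), Ccr9 (-0.063) and S1pr1 (0.032) lost theirs. The sum itself differs between the lines, so genotype and T-cell marker reads cannot be told apart by this fit. It includes Cd2, which peaked in Stat5a-/-, and a sum without Cd2 was not tested. The deleted gene Stat5b lost its call in Stat5b-/- as well (-0.83, adjusted p = 0.187). Without Stat5b-/- replicate 2, 7 members passed in Stat5b-/- against wt, with Ccr7, Ccr9 and S1pr1 at 1.34, 1.38 and 1.16, and 5 passed between the knockout lines. Itgb1 was the call lost in both.

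Among the adhesion molecules, Selplg (ENSMUSG00000048163.13, chromosome 5 from 113818536 to 113832644, minus strand) carries the glycans that selectins bind. It measured 552, 450.4 and 502 in wt, 528, 566 and 678 in Stat5a-/- and 956, 892 and 745 in Stat5b-/-. Stat5b-/- lay above both other lines, which overlapped. Selplg rose 1.72-fold in Stat5b-/- against wt (log2 fold change 0.79, SE 0.13, adjusted p = 2.74e-04) and exceeded Stat5a-/- by 0.55 (SE 0.13, adjusted p = 0.00565). The Stat5a-/- difference from wt was 0.24 (adjusted p = 0.179), or 0.095 without Stat5a-/- replicate 3.

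Cd44 (ENSMUSG00000005087.17, chromosome 2 from 102811141 to 102901665, minus strand), the hyaluronan receptor, went the other way. It had the closest replicates of the 9 genes in wt and Stat5b-/-, at 312, 311 and 317 in wt, 270.1, 276 and 262 in Stat5a-/- and 237, 239 and 234 in Stat5b-/-. None of the lines overlapped. Cd44 fell by 0.41 on the log2 scale in Stat5b-/- against wt (SE 0.083, adjusted p = 0.00142), a 1.32-fold difference. The Stat5a-/- value of -0.22 (SE 0.083) gave an adjusted p of 0.0561, and the knockout lines differed by -0.19 (adjusted p = 0.101). These 2 values lay on either side of the threshold depending on the fit. The Stat5a-/- value passed in DESeq2 (adjusted p = 0.00429), with RLE scaling (0.0445), with only the 2 lines compared (0.0491) and without Stat5b-/- replicate 1 (0.0333), and was -0.13 with a GC offset (adjusted p = 0.231). The difference between the knockout lines passed in DESeq2 (adjusted p = 0.0199) and with a GC offset (-0.27, adjusted p = 0.0220, or 0.0491 with a replicate block added).

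The 250 bases before the Cd44 start, chr2:102901666-102901915 of GRCm38.p6, minus strand, hold none of the 3 motifs.
Cd44: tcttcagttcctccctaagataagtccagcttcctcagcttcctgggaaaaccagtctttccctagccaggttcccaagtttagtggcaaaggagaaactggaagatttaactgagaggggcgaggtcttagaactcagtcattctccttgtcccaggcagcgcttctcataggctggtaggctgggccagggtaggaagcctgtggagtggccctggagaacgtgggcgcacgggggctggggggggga
GC content was 56.4% here and 61.2% in the Cxcr4 window.

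VLA-4 joins the chains of Itga4 (ENSMUSG00000027009.18, chromosome 2 from 79255426 to 79333123, plus strand) and Itgb1 (ENSMUSG00000025809.15, chromosome 8 from 128685654 to 128733200, plus strand). Itga4 read 246, 323 and 294 in wt, 285, 286 and 239.6 in Stat5a-/- and 307, 309 and 316 in Stat5b-/-. The Stat5b-/- values fell inside the wt range. Its log2 fold changes were 0.11 (SE 0.11, adjusted p = 0.454) in Stat5b-/- and -0.090 (SE 0.11, adjusted p = 0.581) in Stat5a-/- against wt, and 0.20 (adjusted p = 0.195) between the knockout lines. Without wt replicate 1 the values against wt were 0.0067 in Stat5b-/- and -0.19 in Stat5a-/-, and without wt replicate 2 they were 0.20 and -0.0011. Itga4 shares 1124 exon bases with Cerkl, a ceramide kinase-like gene on the opposite strand that had only 11 to 34 reads per library. Here too, reads over the shared bases count for neither gene.

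Itgb1 measured 135, 147 and 141 in wt, 154, 155 and 138 in Stat5a-/- and 116, 109.6 and 128 in Stat5b-/-. All Stat5b-/- libraries lay below those of the other lines. Itgb1 fell by 0.26 on the log2 scale in Stat5b-/- against wt (SE 0.096, adjusted p = 0.0416) and was lower than in Stat5a-/- by -0.34 (SE 0.097, adjusted p = 0.0160), with 0.081 (adjusted p = 0.556) in Stat5a-/- against wt. The call against wt was lost when any 1 wt library or Stat5b-/- replicate 1 or 2 was left out (adjusted p 0.0512 to 0.149), and that against Stat5a-/- without Stat5a-/- replicate 1 or 2 or Stat5b-/- replicate 2 (0.0538 to 0.0672). The window before the Itgb1 start, chr8:128685404-128685653 of GRCm38.p6, plus strand, had the highest GC content of the 5 windows, 68.0%, and none of the 3 motifs.
Itgb1: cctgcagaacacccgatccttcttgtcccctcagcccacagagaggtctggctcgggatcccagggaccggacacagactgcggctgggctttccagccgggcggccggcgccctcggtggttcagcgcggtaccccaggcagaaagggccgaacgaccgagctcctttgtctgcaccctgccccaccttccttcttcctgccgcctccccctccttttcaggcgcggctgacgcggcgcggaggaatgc

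Levels of different genes were compared per kb of counted exon. In wt the order was Selplg (117), Cxcr4 (82.9), Cd44 (46.2), Itgb1 (34.5), S1pr1 (22.4), Itga4 (20.6), Ccr7 (16.7), Ccr9 (1.52) and Cxcr5 (0.709 normalized CPM per kb). S1pr1, Itga4 and Ccr7 overlapped with their neighbours in this order, and all other neighbours were apart. The order changed in the knockout lines. In Stat5a-/-, Ccr7 (35.2) moved up to Itgb1 (36.5) and overlapped with it, and Cxcr5 (5.02) exceeded Ccr9 (1.75). In Stat5b-/-, S1pr1 (44.5) and Ccr7 (38.4) reached Cd44 (34.9), overlapping in that order, while Selplg (202) and Cxcr4 (124) stayed on top. Ccr9 levels per length rest on a gene model of 10260 exon bases, 1932 of them shared with an unnamed gene on the opposite strand.

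**Figure D4:**
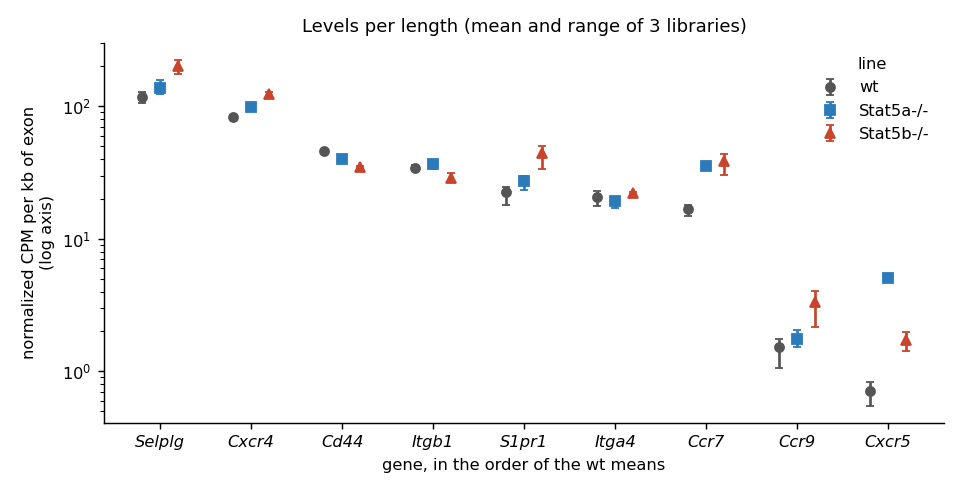
Normalized CPM per kb of exon for each gene (log axis), in the order of the wt means. Points are means and bars the range of 3 libraries. Selplg and Cxcr4 lead in every line, Ccr9 and Cxcr5 are the lowest pair in every line, and Ccr7 in both knockout lines lies above its wt range of 14.8 to 18.2.

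The plot of levels per length spans more than 2 orders of magnitude in wt. Genes with the most similar profiles over the 9 libraries were named for the 3 members past 2-fold. Pearson's r of log2 levels was 0.997 for Cxcr5 with Kcnn4, a calcium-activated potassium channel, followed by Smim3 (0.994) and Mapk14 (0.990), which encodes the p38 kinase. Ccr7 was most like Lbh (0.996), Pced1b (0.995) and Scml4 (0.993). Ccr9 was most like the Toll-like receptor gene Tlr1 (0.996), Ms4a6b (0.990) and Themis (0.988), a gene of thymocyte selection. These libraries share lines and totals, and the values are a description.

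Around the 9 genes, 134 other genes of homing and adhesion were listed in 7 groups, of which 91 passed the filter. In Stat5b-/- against wt 53 of the 91 rose and 11 fell (70.3% passed, beside 46.2% of all tested genes), with a median log2 fold change of 0.62. In Stat5a-/- 42 rose and 12 fell (59.3% beside 36.0%), with a median of 0.44. Between the knockout lines 31 were higher and 14 lower in Stat5b-/- (49.5% beside 33.9%), with a median of 0.20. With the T-cell marker sum as a covariate, 20, 41 and 19 of the 91 passed in these 3 comparisons, beside 8.93%, 21.1% and 14.5% of all tested genes, and in Stat5b-/- against wt Cxcr6 (-0.53, adjusted p = 0.609), Klf2 (-0.073), Zyx (0.60) and Grk3 (0.13) were then without a call. The counts of the 91 include Ackr2, Itga9 and Itga1, which passed the filter on low counts through 1 line only. The genes named from here on were picked by a rule of size. Beside the counts of each list stand the 24.2% of all tested genes that rose and 22.0% that fell in Stat5b-/-, and the 19.8% and 16.3% in Stat5a-/-.

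Of 19 other chemokine receptors 9 were tested. In Stat5b-/- against wt 7 rose and 0 fell, and in Stat5a-/- 3 rose and 1 fell, which is 77.8% and 44.4% beside 46.2% and 36.0% of all tested genes. The atypical receptor Ackr2, a chemokine scavenger, had 4, 9 and 6 reads in wt, 228, 201 and 204 in Stat5a-/- and 8, 5 and 4 in Stat5b-/-, or 0.352 ± 0.10, 16.9 ± 1.31 and 0.398 ± 0.131 normalized CPM. It passed the filter on low counts through Stat5a-/- only and had to differ there, so no test is given and the size of its rise over so few reads is uncertain. The counts of this list still include it among the rises in Stat5a-/-. Ccrl2 rose in Stat5b-/- (2.67, SE 0.29) and had 0.62 (adjusted p = 0.212) in Stat5a-/-, from only 11, 9 and 9 reads in wt and 12, 10 and 10 in Stat5a-/-. Cxcr6 rose in Stat5b-/- (1.20) with -0.034 (adjusted p = 0.936) in Stat5a-/-, and Ccr2, the receptor of CCL2, fell by 1.19 on the log2 scale in Stat5a-/- with -0.18 (adjusted p = 0.433) in Stat5b-/-. Ackr3, the other receptor of CXCL12, had 0 reads in all libraries.

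Among 13 genes of sphingosine 1-phosphate and oxysterol guidance 10 were tested, and 3 rose and 3 fell in Stat5b-/- against wt, while 3 rose and 2 fell in Stat5a-/- (60.0% and 50.0% passed, beside 46.2% and 36.0%). S1pr3, a receptor of the same lipid as S1pr1, split the knockout lines. It averaged 2.68 ± 0.338 in wt, 17.1 ± 1.65 in Stat5a-/- and 0.213 ± 0.137 in Stat5b-/-, a log2 fold change of 2.67 (adjusted p = 1.33e-07) in the former and -3.61 (adjusted p = 2.50e-06) in the latter, where it had 1, 5 and 3 reads. S1pr4, the lymphoid member of the family, rose in both (1.69 in Stat5b-/-, 2.01 in Stat5a-/-). Klf2, a transcription factor that drives S1pr1, rose by 0.92 in Stat5b-/- and 1.36 in Stat5a-/-, so its order between the knockout lines was the reverse of that of S1pr1 (Stat5b-/- against Stat5a-/- -0.44, adjusted p = 0.0223).

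Of 14 niche ligands and counter-receptors only 5 were expressed enough to test, and Cxcl12, Vcam1 and Sele averaged under 1 normalized CPM in every line. Spp1, which encodes osteopontin, a ligand of the Itga4 and Cd44 products, rose from 1.86 ± 0.184 in wt to 40.7 ± 4.84 in Stat5a-/- (log2 fold change 4.44) and 27.6 ± 7.49 in Stat5b-/- (3.88). Icam2, a ligand of the integrin LFA-1, rose in both as well (1.34 in Stat5a-/-, 1.74 in Stat5b-/-). In this list 2 genes rose and 1 fell in Stat5b-/-, and 3 rose and 0 fell in Stat5a-/- (3 of 5 genes each, 60.0%).

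Other integrins numbered 24, with 14 tested, and 7 rose and 3 fell in Stat5b-/- against wt, 5 rose and 4 fell in Stat5a-/- (71.4% and 64.3% passed). Itgal, the alpha chain of LFA-1, rose from 34.4 ± 6.82 to 254 ± 23.0 in Stat5a-/- (2.88) and 267 ± 18.3 in Stat5b-/- (2.96). Itga9, which like Itga4 pairs with Itgb1, had 3, 7 and 5 reads in wt, 1, 2 and 2 in Stat5a-/- and 225, 259 and 164 in Stat5b-/-, or 0.278 ± 0.0821, 0.138 ± 0.0593 and 15.2 ± 2.61 normalized CPM. It passed the filter through Stat5b-/- only, with the same limit as Ackr2. Itga6, the laminin-binding chain, rose in Stat5a-/- (1.76, adjusted p = 2.93e-08) with -0.077 (adjusted p = 0.575) in Stat5b-/-. Itga1, a collagen-binding chain, had 50, 57 and 59 reads in wt, 3, 0 and 5 in Stat5a-/- and 8, 5 and 4 in Stat5b-/-. It passed the filter through wt only, so no test is given for it either. The counts of this list still include Itga9 (up in Stat5b-/-) and Itga1 (down in both knockout lines).

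For integrin activation and linkage, 14 of 17 genes were tested, with 8 up and 2 down in Stat5b-/-, and 8 up and 1 down in Stat5a-/- (71.4% and 64.3% passed). Ptk2, the focal adhesion kinase, fell from 39.2 ± 0.415 in wt to 1.49 ± 0.292 in Stat5a-/- (-4.69, SE 0.21) and 1.79 ± 0.644 in Stat5b-/- (-4.46, SE 0.20). Rasgrp2, the exchange factor that activates RAP1, rose by 1.33 in Stat5a-/- and 0.74 in Stat5b-/-. Zyx, a protein of focal adhesions, rose by 0.66 in Stat5a-/- and 1.15 in Stat5b-/-, and neither call stood with the T-cell covariate (0.35 and 0.60, adjusted p = 0.164 and 0.196).

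Selectin, enzymes of selectin-ligand synthesis and other adhesion molecules made a list of 23, with 15 tested. In Stat5b-/- against wt 12 rose and 1 fell, in Stat5a-/- 8 rose and 2 fell (86.7% and 66.7% passed). Enzymes that build selectin ligands differed among themselves. Gcnt1, which starts the branched O-glycan, rose from 1.54 ± 0.358 to 9.91 ± 0.525 in Stat5a-/- (2.66) and 27.4 ± 2.33 in Stat5b-/- (4.13), and Fut4, a fucosyltransferase, rose from 2.38 ± 0.488 to 16.6 ± 0.214 (2.81) and 20.9 ± 2.38 (3.14). The sialyltransferase gene St3gal6 fell by 1.40 in Stat5a-/- on the log2 scale (adjusted p = 2.29e-06), with -0.086 (adjusted p = 0.608) in Stat5b-/-. St3gal4, B4galt1, Tpst1 and Tpst2 had values from 0.046 to 0.67 in Stat5b-/-, where all but Tpst1 passed. In Stat5a-/- their values were 0.14 to 0.76, and all but St3gal4 passed. These 5 were named after their values were seen. Fut7, the other fucosyltransferase of this pathway, averaged under 1 normalized CPM in every line and was not tested. Alcam, an adhesion molecule of the immunoglobulin family, fell by 1.72 in Stat5b-/- and fell by 2.30 in Stat5a-/- on the log2 scale. It had only 13, 10 and 9 reads in Stat5b-/- and 7, 7 and 5 in Stat5a-/-.

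All 24 genes of chemokine receptor signalling and cell motility were tested, with 14 up and 1 down in Stat5b-/- and 12 up and 2 down in Stat5a-/- (62.5% and 58.3% passed). Grk5, a kinase that switches off G-protein-coupled receptors, rose by 1.29 in Stat5b-/- and 1.92 in Stat5a-/-. Coro1a, an actin regulator of lymphocytes, rose by 1.04 in Stat5b-/- and 0.94 in Stat5a-/-. Grk3 rose in Stat5b-/- (1.42, adjusted p = 0.00848, or 0.0522 without Stat5b-/- replicate 1) with 0.69 (adjusted p = 0.233) in Stat5a-/-. It had only 5, 12 and 14 reads in wt.

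**Figure D5:**
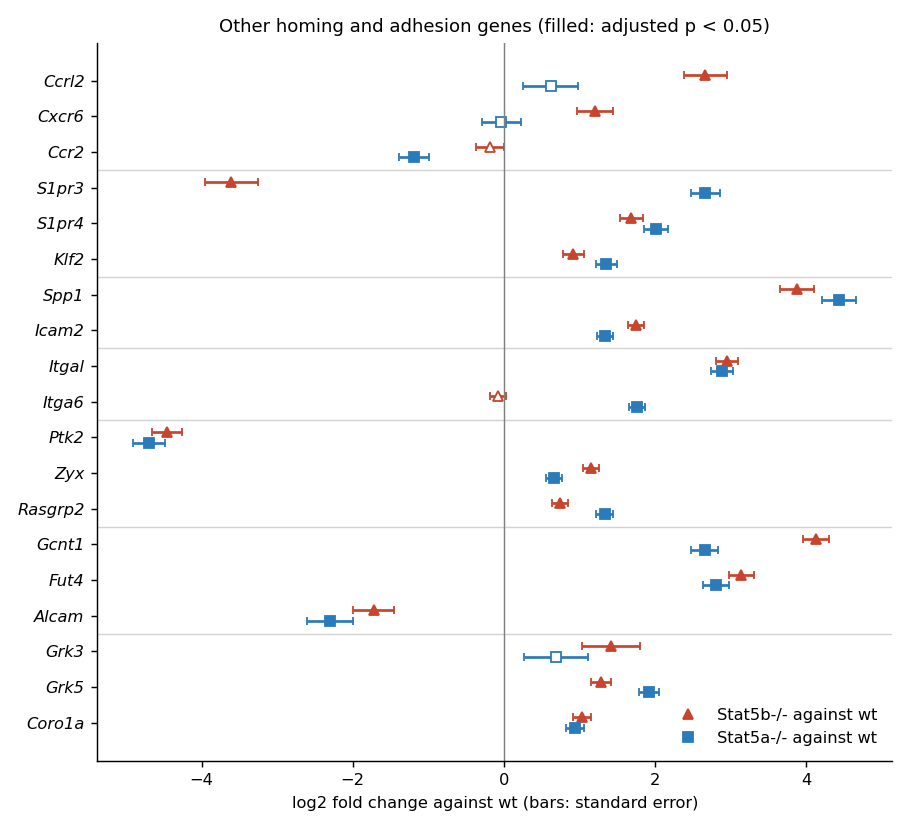
Log2 fold change against wt of the genes named from the 7 lists, without the 3 that passed the filter on low counts through 1 line only, with bars of 1 standard error, triangles for Stat5b-/- and squares for Stat5a-/-. Filled symbols passed an adjusted p under 0.05, and grey lines separate the lists. S1pr3 is the gene with filled symbols on opposite sides of 0 (-3.61 and 2.67), Ptk2 is far left in both lines (-4.46 and -4.69) and Spp1 far right (3.88 and 4.44).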

How the data were processed

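Polyadenylated RNA of 3 BCR/ABLp185+ lines (wt, Stat5a-/-, Stat5b-/-) was sequenced as 50 bp single-end reads from SENSE mRNA-Seq libraries. The authors trimmed reads with Trimmomatic, mapped them with STAR to GENCODE M13 (GRCm38) and counted them on gene models with featureCounts. The deposited values are raw counts per gene, without normalization. The counting command in the file headers sets no strand option, and by default featureCounts leaves out reads that map to several places or overlap 2 genes. No molecular identifiers were used, so PCR copies count as reads and n of reads overstates n of molecules.

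Symbols came from GENCODE M21, which named 50376 of 50686 gene IDs. Groups came from titles and genotype labels. After TMM scaling, edgeR 4.0.16 under R 4.3.3 was used for testing (filterByExpr, glmQLFit, glmQLFTest, all 9 libraries, genotype as the only term), with Benjamini-Hochberg adjustment over 13852 genes. All p-values in the text are from this fit unless another is named. Genes passed at an adjusted p under 0.05, and 2-fold means an absolute log2 fold change over 1. Dividing the size of a log2 fold change by the root of its F statistic gave the SE. The study's own tool, DESeq2 1.42.0, was run as an alternative, as were RLE scaling, no filter, a minimum mean of 10 counts, fits to only the 2 lines compared, a replicate block, a GC offset (loess, span 0.5, over the 13824 genes with a GC value), both together, and each library left out. The T-cell marker covariate and the TATAAA search were added after the data were seen. The main edgeR fit and DESeq2 were tested on simulated counts, for Stat5b-/- against wt only. The simulation gave all genes the same spread and changed only genes with higher counts, and the other alternatives were not tested this way. Some genes of the lists enter the counts but are not reported here by name.

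Members and lists were chosen with earlier results of these data known. Named pathway genes were, per list, the up to 3 largest absolute log2 fold changes in each knockout line against wt, among genes over 2-fold past the test, with a mean of at least 1 normalized CPM and libraries that do not overlap. Similar profiles were named for members past 2-fold, as the 3 highest correlations of log2(normalized CPM + 1). Promoter windows are from RefSeq (GRCm38.p6).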

Additional observations from a re-analysis of the deposited data

How the results depend on the processing

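Of 486 values of the 9 genes (27 results under 18 alternatives), 440 kept their direction and side of the threshold. With the same sign, 28 lost the call and 7 gained it, and 11 changed sign. Some sign changes with the T-cell covariate also crossed the threshold. Ccr9 and S1pr1 in Stat5b-/- against wt and Ccr9 between the knockout lines lost the call, and Ccr9 and S1pr1 in Stat5a-/- against wt gained it. Of the 27 results, 4 held under every alternative. For the 25 named pathway and deleted genes against wt, 876 of 898 values kept both, 11 lost the call with the same sign and 11 changed sign. Among the sign changes, those of Cxcr6 and Klf2 in Stat5b-/- with the T-cell covariate also lost the call. Ackr2, Itga9 and Itga1, which passed the filter through 1 line only, are among the 25. With a 2-fold limit added to the adjusted p, 3 members passed in Stat5b-/- against wt in place of 8 and 1 between the knockout lines in place of 6, and the pathway counts were 30 of 64 in Stat5b-/-, 23 of 54 in Stat5a-/- and 13 of 45 between the knockout lines. With the T-cell marker sum as a covariate, members passing were 0 in Stat5b-/- against wt (edgeR, 4 with an unadjusted p under 0.05) and 3 between the knockout lines, and pathway genes were 20 and 19. In Stat5b-/-, Cxcr4 (0.68), Selplg (1.26), Itgb1 (-0.66) and Cd44 (-0.42) kept or exceeded their size with larger standard errors. The covariate also turned the sign, against wt in Stat5b-/-, of Ccr9 (-1.05), S1pr1 (-0.52), Itga4 (-0.43), Cxcr6 (-0.53), Ackr2 (-0.22) and Klf2 (-0.073), against wt in Stat5a-/-, of Ccr9 (-0.99), S1pr1 (-0.55), Itgb1 (-0.14) and Grk3 (-0.023), and between the knockout lines, of Ccr7 (-0.36), Ccr9 (-0.063) and Itga4 (-0.033). The cause was not tested.

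Other sign changes were in values that did not pass. The GC offset gave 0.062 for Itga4 and 0.085 for Cxcr6 in Stat5a-/- against wt, and 0.063 and 0.053 with the replicate block added. Over the fits that left out 1 library, Cxcr6 in Stat5a-/- ranged from -0.29 to 0.12 and Ackr2 in Stat5b-/- from -0.17 to 0.40. Over the 9 fits that left out a library, member counts were 7 to 8 in Stat5b-/- against wt, 2 to 4 in Stat5a-/- and 5 to 6 between the knockout lines, and pathway counts 56 to 66, 51 to 56 and 32 to 44. Stat5b in Stat5a-/- (0.43 in all libraries) lost its call without Stat5a-/- replicate 1 or 3 (adjusted p = 0.0511 and 0.0593).

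Replicate numbers did not pair the libraries. The deviations of same-numbered libraries correlated at -0.13 on average (9 pairs, -0.63 to 0.35), beside 0.062 for 18 pairs with different numbers. A replicate block gave 7, 2 and 6 member calls in Stat5b-/- against wt, Stat5a-/- against wt and between the knockout lines, the lost calls being Itgb1 (adjusted p = 0.0965) and Cxcr4 (0.0795), and 62, 54 and 35 pathway calls. Without the filter on low counts Itgb1 in Stat5b-/- (adjusted p = 0.0887) and Cxcr4 between the knockout lines (0.0508) also missed the threshold. Depth limits Cxcr5 in wt most among the members, with 29 to 49 reads per library.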
